A study of Homo sapiens with 2 samples.

Results

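Open chromatin at the genes of the proteasome was compared between J76, described in the labels as a human acute T-lymphoblastic leukemia line, and the human embryonic kidney line labelled T293 and called 293T in the protocol (293T here). The assay was ATAC-seq, in which Tn5 transposase cuts accessible DNA and attaches sequencing adapters; Tn5 purified in the submitters' laboratory was used on 50000 untreated cells of each line. There was 1 library and 1 peak list per line, and without replicates no p-value was computed and no difference could be checked. The 46 genes were chosen by name: the subunits of the 20S core particle, the 19S regulatory particle, the activators and the inhibitor, and the assembly factors. They were taken from the 19970 protein-coding genes of the autosomes and chromosome X in a RefSeq table of GRCh38.p14, and all 46 were found there. A gene was counted as having a boundary peak in a line if a peak overlapped the 1 kb on either side of either of its ends.

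The proteasome is the main protein-degrading machine of the nucleus and cytosol. Its barrel-shaped 20S core is built of alpha subunits, which form the gated outer rings, and beta subunits, which form the inner rings and carry the proteolytic sites. The 19S particle recognises ubiquitin-tagged proteins, and its ATPases unfold them and feed them into the core. In cells of the immune system, and in many other cells after interferon exposure, the catalytic subunits PSMB6, PSMB7 and PSMB5 are replaced by PSMB9, PSMB10 and PSMB8. The resulting immunoproteasome alters the peptides offered on MHC class I. PSMB11 takes the place of PSMB5 in cortical epithelial cells of the thymus.

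The lists held 59631 peaks in J76 and 85597 in 293T. The fold printed for a peak is the authors' enrichment over background at its summit, a linear ratio, and q is the authors' false discovery value, given as −log10. Median folds of the whole lists were 4.83 in J76 and 4.38 in 293T. Folds rank peaks within a list and are set side by side here without a claim of change. No read counts were used, so depth is unknown, and a missing peak does not show that a site was closed. Of 10 T lineage markers, 8 had a boundary peak in J76 alone, PTPRC in both lines and CD5 in neither. Of 10 kidney or epithelial markers, 8 had one in 293T alone, YAP1 in both lines and CDH1 in neither. KRT8 and KRT18 were counted on the same peak, and the EPCAM peak was weak (fold 3.55, −log10 q 4.2). Annotated transcription starts were given for 5 of these 10. Within 1 kb of them, WT1 and GDNF were marked in 293T alone, YAP1 and CAV1 in both lines and KRT8 in neither. Of 6 T lineage markers with a start, 5 were marked there in J76 alone, PTPRC among them. Of 8 markers of B, myeloid and liver cells, 6 had none in either line, CSF1R was marked in 293T and APOA1 in both. The CSF1R mark was weak (highest fold 3.13, −log10 q 4.14), and ends of HMGXB3 and PDGFRB lie within 2 kb of its ends.

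Proteasome genes were marked in both lines with few exceptions. Boundary peaks were present at 42 of the 46 genes in J76 (64.6% of all protein-coding genes) and at 41 in 293T (69.7%). The 41 were marked in both lists, against 60.7% of all genes. PSMB8 was the single gene with a boundary peak in J76 alone (3.94% of all genes), and 0 had one in 293T alone (9.09% of all genes). PSMA6, PSMB11, PSMF1 and PSMG4 had none in either line (26.3% of all genes). All 7 constitutive beta subunits, all 6 ATPases and all 11 other 19S subunits were marked in each list. Of the 4 immunoproteasome and thymus genes, PSMB9 and PSMB10 had one in both. Every class besides these 4 genes had the same members marked in J76 and in 293T.

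The promoter sequences of the immunoproteasome and thymus genes are shown first, with PSMB5, the subunit that PSMB8 and PSMB11 replace. Each is the RefSeq window of GRCh38.p14 from 250 bases before to 50 after an annotated transcription start. Capitals mark letters that match any of 9 short motifs searched on both strands, which are named with their shares below.
PSMB8 outer start (chr6:32844630-32844929, minus strand): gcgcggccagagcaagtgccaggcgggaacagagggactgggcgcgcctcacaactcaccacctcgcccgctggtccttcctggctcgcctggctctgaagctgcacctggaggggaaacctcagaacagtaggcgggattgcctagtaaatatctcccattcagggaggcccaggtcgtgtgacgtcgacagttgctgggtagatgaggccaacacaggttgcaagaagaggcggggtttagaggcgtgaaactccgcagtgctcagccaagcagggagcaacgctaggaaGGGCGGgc
PSMB8 inner start (chr6:32843998-32844297, minus strand): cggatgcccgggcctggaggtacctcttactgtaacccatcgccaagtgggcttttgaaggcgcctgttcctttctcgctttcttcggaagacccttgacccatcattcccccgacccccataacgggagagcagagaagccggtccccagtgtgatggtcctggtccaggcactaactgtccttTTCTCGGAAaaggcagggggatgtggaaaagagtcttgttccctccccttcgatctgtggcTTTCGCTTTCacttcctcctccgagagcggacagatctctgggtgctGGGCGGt
PSMB9 start (chr6:32853942-32854241, plus strand): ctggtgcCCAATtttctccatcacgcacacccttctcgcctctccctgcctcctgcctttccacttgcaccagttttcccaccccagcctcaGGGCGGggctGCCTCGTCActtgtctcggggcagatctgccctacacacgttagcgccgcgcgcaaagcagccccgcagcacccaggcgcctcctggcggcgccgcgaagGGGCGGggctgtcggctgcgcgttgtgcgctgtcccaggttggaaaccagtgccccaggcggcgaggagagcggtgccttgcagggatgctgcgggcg
PSMB10 start (chr16:67936801-67937100, minus strand): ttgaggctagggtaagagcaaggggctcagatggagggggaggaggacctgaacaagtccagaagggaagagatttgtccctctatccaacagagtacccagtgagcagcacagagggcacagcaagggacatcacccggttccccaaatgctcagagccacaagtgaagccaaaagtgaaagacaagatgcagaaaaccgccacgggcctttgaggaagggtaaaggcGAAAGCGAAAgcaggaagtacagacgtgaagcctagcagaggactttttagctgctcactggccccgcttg
PSMB11 start (chr14:23041962-23042261, plus strand): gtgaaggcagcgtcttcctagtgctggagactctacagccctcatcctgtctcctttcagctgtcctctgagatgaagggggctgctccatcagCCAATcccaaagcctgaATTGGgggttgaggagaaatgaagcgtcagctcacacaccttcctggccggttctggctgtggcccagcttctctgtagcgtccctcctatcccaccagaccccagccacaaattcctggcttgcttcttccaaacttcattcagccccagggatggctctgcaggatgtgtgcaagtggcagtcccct
PSMB5 inner start (chr14:23034851-23035150, minus strand): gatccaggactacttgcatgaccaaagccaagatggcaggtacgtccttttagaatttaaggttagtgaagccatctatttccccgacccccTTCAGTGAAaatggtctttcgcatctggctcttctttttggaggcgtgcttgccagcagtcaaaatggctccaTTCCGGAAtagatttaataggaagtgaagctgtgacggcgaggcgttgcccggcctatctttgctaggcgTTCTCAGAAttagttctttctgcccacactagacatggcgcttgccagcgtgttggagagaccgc

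Transcription starts were available from the same RefSeq source for 40 of the 46 genes, and with them the picture narrowed to PSMB8 and PSMB11. The remaining 6 are PSMA7, PSMB1, PSMB6, PSMB7, PSMD4 and PSMG3. A peak within 1 kb of an annotated start was found at 39 of the 40 in J76 (66.9% of 15811 genes) and at 38 in 293T (71.8%). The 38 were shared by the lists (63.5%), PSMB8 had such a peak in J76 alone (3.35%), 0 members had one in 293T alone (8.27%), and PSMB11 had none (24.9%). The starts that make the difference at PSMA6, PSMF1 and PSMG4 lie inside the annotated gene, far from both of its ends. At least 1 annotated start lay inside a peak at 38 of 40 members in J76 (62.6% of all genes) and at 37 of 40 in 293T (68.4%). The exceptions in both lines were PSMB10 and PSMB11, and in 293T also PSMB8.

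**Figure D1:**
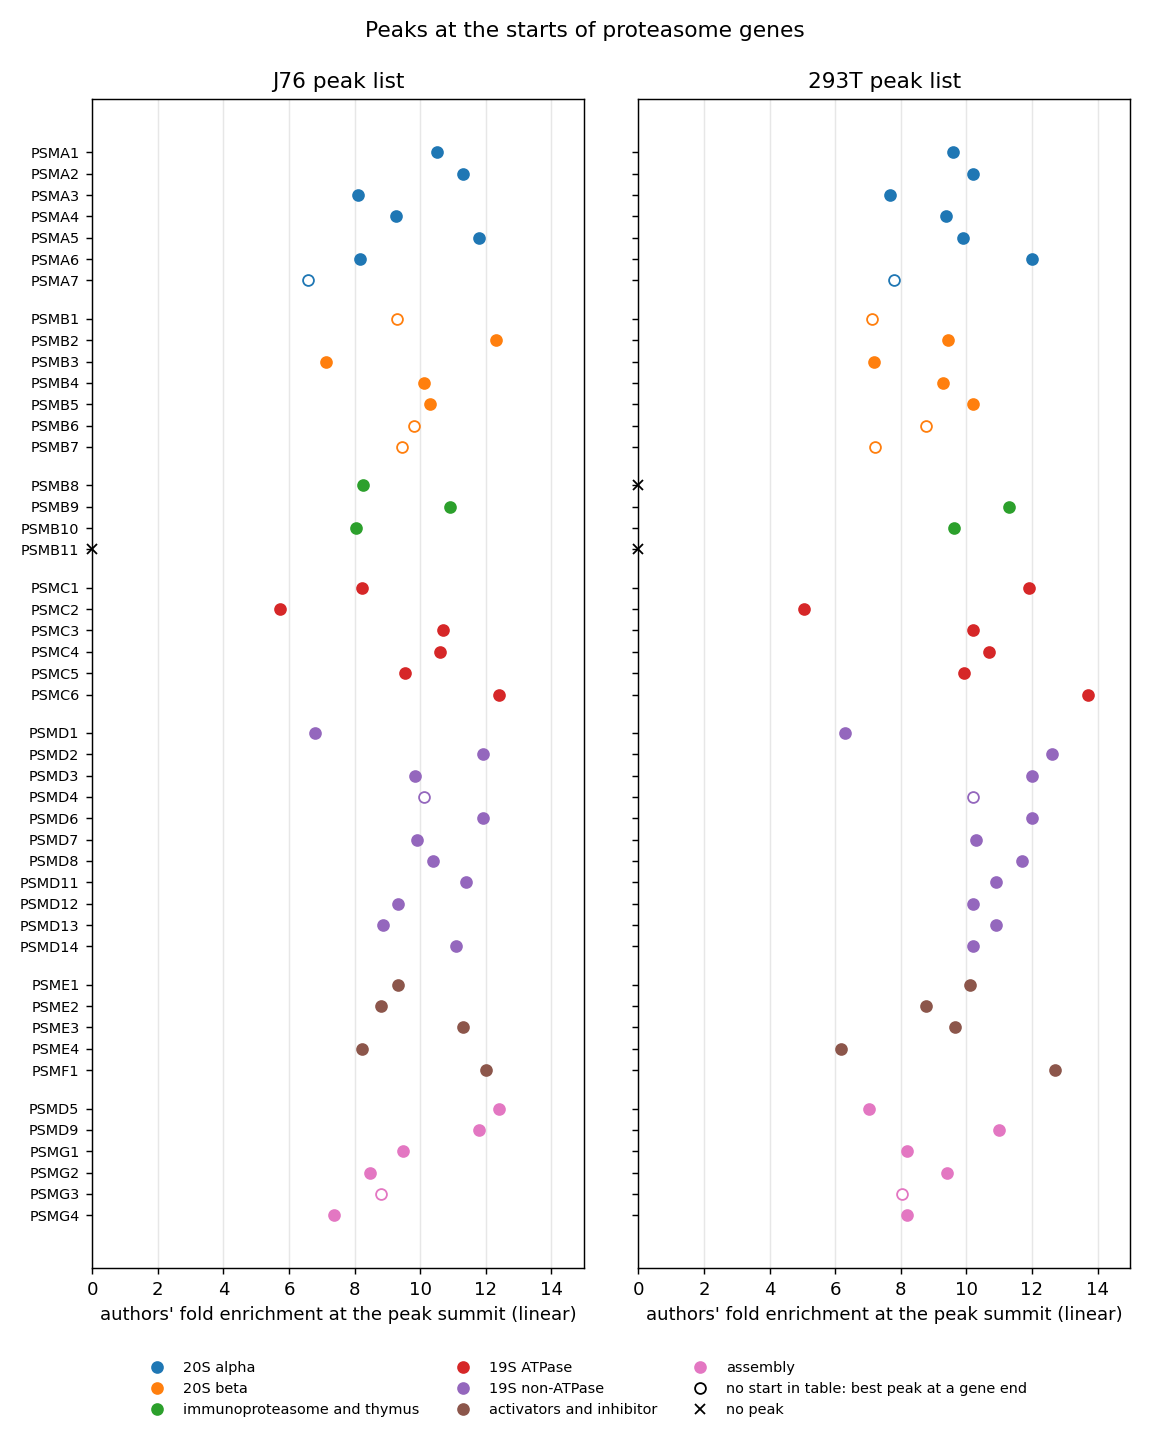
Authors' fold enrichment (linear) at the peak nearest to an annotated start of each of the 46 genes, J76 list on the left and 293T list on the right, 1 library each; open circles are genes with no start in the table, for which the highest boundary peak is drawn, and crosses mark genes with no peak. Crosses stand at PSMB11 in J76, and at PSMB8 and PSMB11 in 293T.

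PSMB8, the chymotrypsin-like immunoproteasome subunit, was the 1 member of 40 with a peak within 1 kb of an annotated start in J76 and none in 293T. The gene lies in the MHC class II region on chromosome 6 from 32840717 to 32844679, on the minus strand. In J76 a peak of fold 8.26 and −log10 q 76.5 ran from 32844212 to 32845268, with its summit 56 bp upstream of the outer start. It was among the strongest 7.34% of the J76 list by q. A weaker J76 peak of fold 3.16 (−log10 q 10.4) ran from 32845405 to 32845663, 850 bp upstream of that start. The 293T list held no peak over the gene, and the nearest ones ended 1450 bp below it and began 8512 bp above it. The J76 peak contained all 300 bases of the outer promoter window printed above and 86 of the 300 of the inner one. TAP1, a subunit of the peptide transporter, ends within 1 kb of the same peak, so the peak is not assigned to PSMB8 alone.

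The neighbours of PSMB8 were marked in both lines. PSMB9, which takes the place of PSMB6, begins on chromosome 6 at 32854192 on the plus strand, and its start window faces that of TAP1. Its peak had a fold of 10.9 in J76, from 32853416 to 32854704, and of 11.3 in 293T, from 32853191 to 32854410. The summits lay 70 bp upstream of the PSMB9 start in J76 and 114 bp upstream in 293T. The peak at the start of TAP2, the other transporter subunit, on the far side of PSMB8, had a fold of 9.04 in J76 and 10 in 293T. The interval without a 293T peak thus lay between peaks present in both lists. With windows of 2.5 kb in place of 1 kb, the 293T peak at TAP2 reached the far end of PSMB8, and PSMB8 counted as marked in both lines. Within 50 kb of PSMB8 there were 5 J76 peaks without a 293T counterpart and 0 of the reverse, and near PSMB9 the numbers were 4 and 0. The means over all genes were 1.97 and 3.33. The windows of PSMB8 and PSMB9 overlap, and both counts include the J76 peaks of fold 8.26 and 3.16 at PSMB8.

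**Figure D2:**
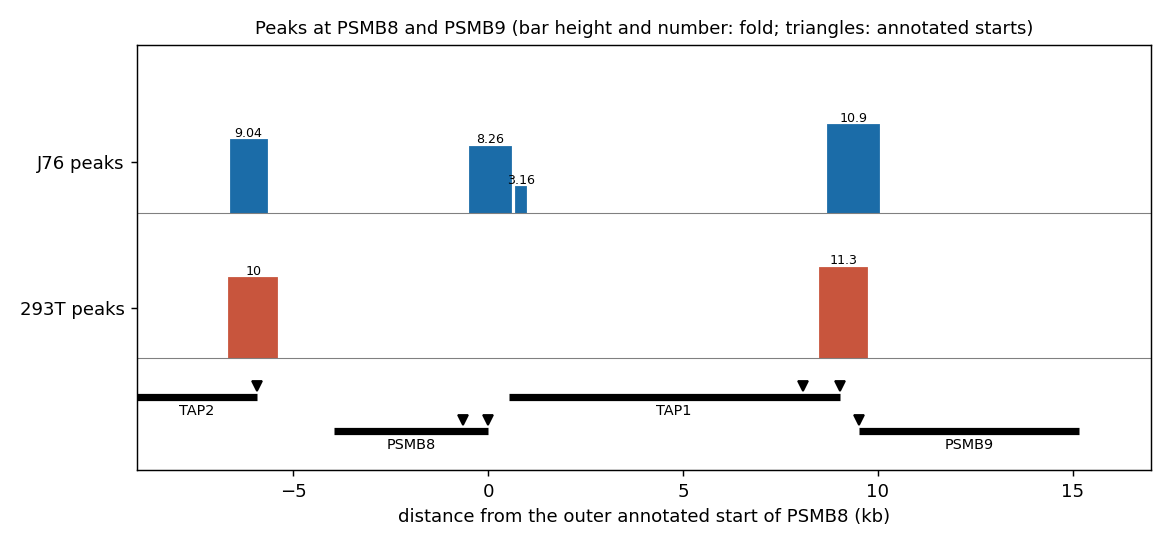
Peaks of the J76 list (upper) and the 293T list (lower) around PSMB8 and PSMB9, by distance in kb from the outer annotated start of PSMB8; bar height and the number above give the authors' fold, black bars are genes and triangles annotated starts. The J76 peaks of fold 8.26 and 3.16 at PSMB8 have no 293T counterpart, while the peaks at TAP2 and between TAP1 and PSMB9 are in both lists.

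PSMB10, which takes the place of PSMB7, had a peak of similar position in both lines, but inside the gene. The gene runs from 67934506 to 67936850 on chromosome 16, minus strand. Its peak had a fold of 8.03 and a −log10 q of 68.2 in J76, from 67935546 to 67936632. In 293T it had a fold of 9.62 and a −log10 q of 75.8, from 67935208 to 67936531. The summits lay 1026 bp into the gene from its annotated start in J76 and 1018 bp in 293T. None of the 300 bases of its promoter window, shown above, lay in a peak of either line. When summits in place of whole peaks were matched to the 1 kb windows, PSMB10 counted as unmarked in both lines.

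PSMB11, the thymus-specific subunit, was the member with no peak near it in either line. It lies on chromosome 14 from 23042212 to 23044060, on the plus strand. The nearest J76 peaks ended 6745 bp below the gene and began 12144 bp above it, and the nearest 293T peaks 6779 bp below and 12205 bp above. The peak below belongs to the start of PSMB5, the constitutive subunit, which lies next to it. There the fold was 10.3 in J76 and 10.2 in 293T, with summits 38 bp and 34 bp upstream of the inner PSMB5 start. Each list thus had a strong peak at PSMB5 and none at PSMB11.

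**Figure D3:**
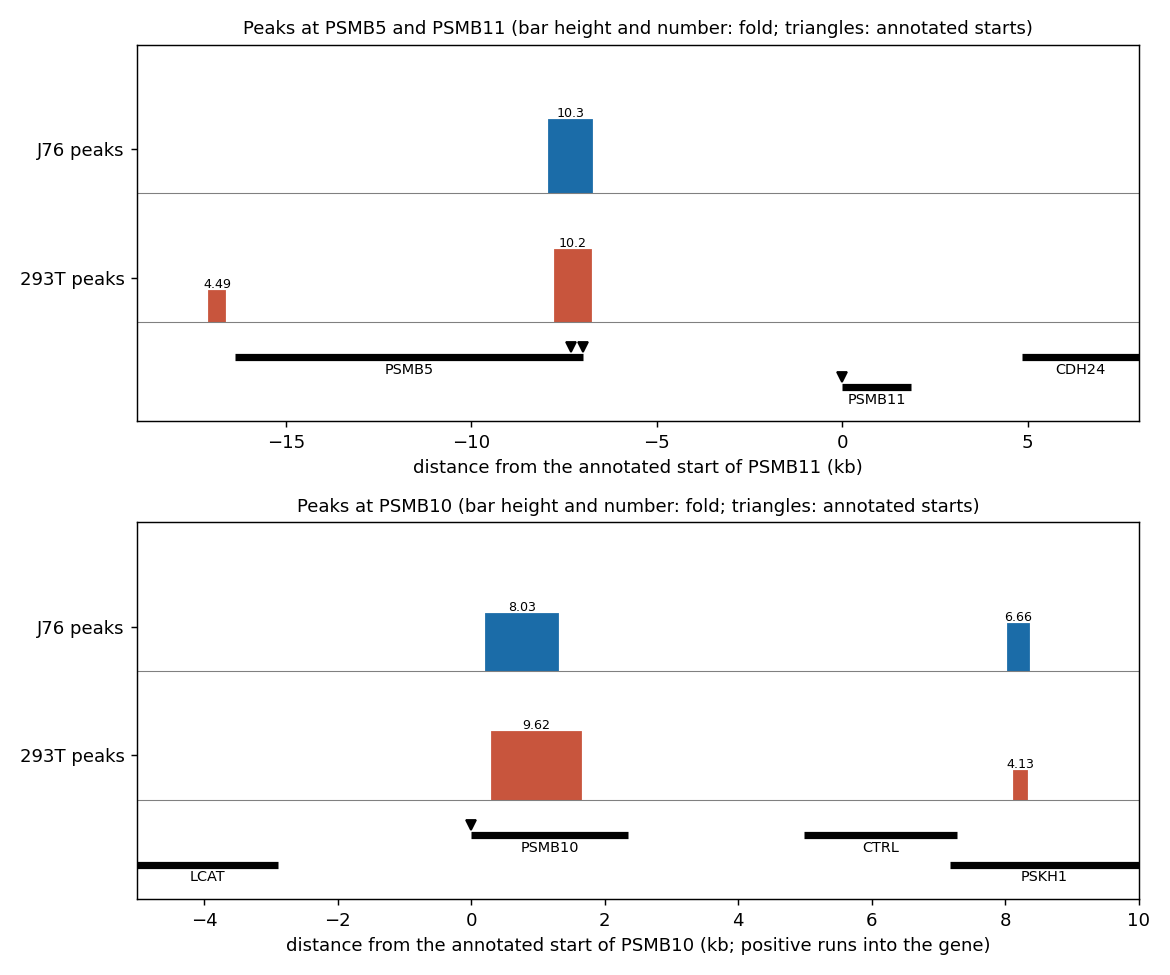
Peaks of the J76 list (upper in each panel) and the 293T list (lower) around PSMB5 and PSMB11, by distance in kb from the PSMB11 start, and around PSMB10, by distance in kb from its start; bar height and number give the authors' fold, black bars are genes and triangles annotated starts. PSMB5 has peaks of 10.3 and 10.2 while PSMB11 has none, and the PSMB10 peaks lie inside the gene.

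The constitutive catalytic partners were marked at a gene end in both lines. PSMB6, the caspase-like subunit, had a fold of 9.81 in J76 and 8.76 in 293T, and PSMB7, the trypsin-like subunit, 9.43 in J76 and 7.23 in 293T. Among the structural beta subunits, PSMB2 had the highest fold in J76, at 12.3, with 9.43 in 293T. PSMB4 had 10.1 in J76 and 9.28 in 293T. PSMB3 had 7.14 in J76 and 7.19 in 293T. The end of PSMB1 carried a pair of peaks in each line. The peak centred on that end had a fold of 5.94 in J76 and 7.12 in 293T, and the one beside it, which is also at the end of TBP, had 9.29 in J76 and 6.76 in 293T.

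Of the 7 alpha subunits, which gate the core, 6 had boundary peaks in both lists and PSMA6 had none. PSMA5 stood near the top of both lists by q. At its start the fold was 11.8 and the −log10 q 129 in J76, against 9.91 and 125 in 293T. PSMA2 had folds of 11.3 in J76 and 10.2 in 293T, PSMA4 9.25 and 9.37, and PSMA3 8.10 and 7.67 in the same order. PSMA7 had 6.58 in J76 and 7.78 in 293T at its upper end, which it shares with SS18L1. The upper end of PSMA1 lies beside PDE3B and carried 4.95 in J76 and 5.91 in 293T. The annotated PSMA1 start, 123276 bp inside that end, had a stronger peak of 10.5 in J76 and 9.59 in 293T.

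PSMA6, PSMF1 and PSMG4 had no boundary peak but a strong peak at a start inside the gene. The RefSeq record of PSMA6 begins at 35278558 on chromosome 14, while its transcription starts lie 13759 and 13824 bp further in. The peak there had a fold of 8.16 and a −log10 q of 107 in J76, from 35291840 to 35293091. In 293T it had a fold of 12.0 and a −log10 q of 109, from 35291542 to 35293104. PSMF1, an inhibitor of the core in vitro, had no peak at its outer start. At its inner start, 5339 bp into the gene, the fold was 12.0 in J76 and 12.7 in 293T. PSMG4, an assembly chaperone, had 7.37 in J76 and 8.18 in 293T at its start 4543 bp from the lower gene end. The promoter windows at the first 2 of these internal starts lay wholly inside a peak in both lines.
PSMA6 outer of its pair of starts (chr14:35292067-35292366, plus strand): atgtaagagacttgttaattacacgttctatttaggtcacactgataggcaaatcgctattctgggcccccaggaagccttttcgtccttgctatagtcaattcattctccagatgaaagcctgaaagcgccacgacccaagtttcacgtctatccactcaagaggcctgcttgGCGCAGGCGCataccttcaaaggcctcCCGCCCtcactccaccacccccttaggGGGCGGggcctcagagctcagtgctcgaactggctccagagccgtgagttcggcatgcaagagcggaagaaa
PSMF1 inner start (chr20:1118352-1118651, plus strand): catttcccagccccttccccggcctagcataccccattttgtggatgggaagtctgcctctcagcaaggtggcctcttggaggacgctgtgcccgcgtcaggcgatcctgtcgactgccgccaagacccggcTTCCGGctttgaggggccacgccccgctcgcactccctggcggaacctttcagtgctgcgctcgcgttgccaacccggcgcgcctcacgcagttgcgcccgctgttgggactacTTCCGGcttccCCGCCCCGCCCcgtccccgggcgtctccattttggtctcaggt

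**Figure D4:**
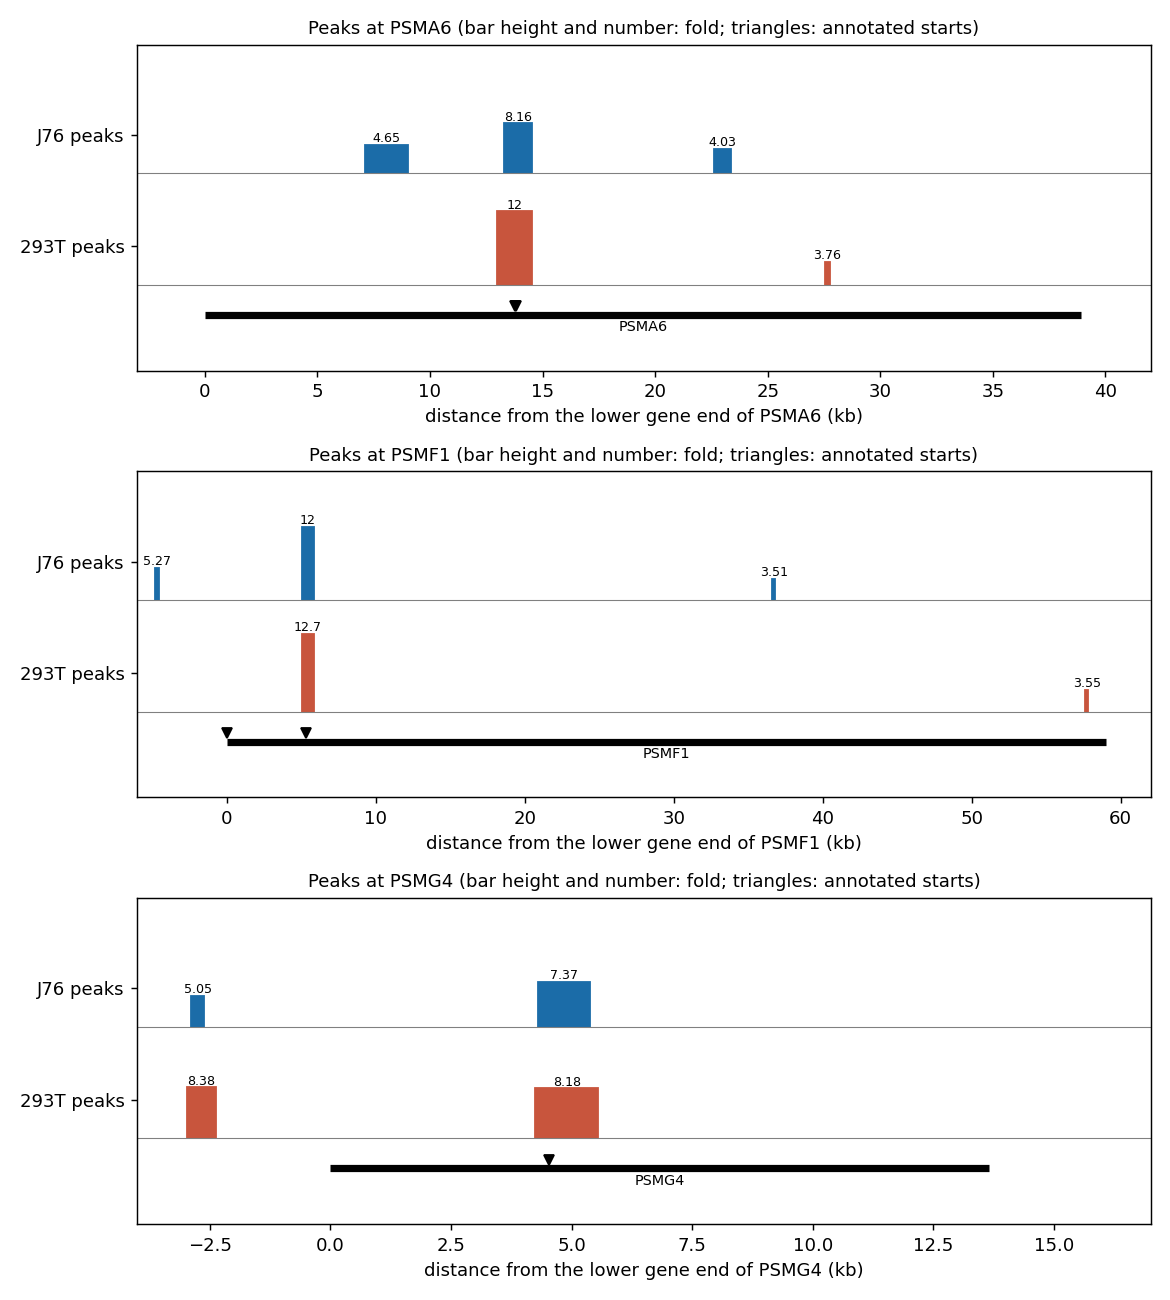
Peaks of the J76 list (upper in each panel) and the 293T list (lower) over PSMA6, PSMF1 and PSMG4, by distance in kb from the lower gene end; bar height and number give the authors' fold, black bars are genes and triangles annotated starts. In each gene the highest peak within the gene in either list lies at an annotated start away from the ends, with folds of 8.16 and 12.0 at PSMA6, 12.0 and 12.7 at PSMF1, and 7.37 and 8.18 at PSMG4 (J76, then 293T).

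The 19S ATPases, which form the unfolding ring, spanned the range of folds among the members. PSMC6 was the highest of the 46 genes in 293T at 13.7, and had 12.4 in J76. Its J76 peak had a −log10 q of 117 and its 293T peak 106. PSMC2 was the lowest at a start in both lists, with 5.72 in J76 and 5.06 in 293T, at a peak that also lies at the end of PMPCB. PSMC1 had 8.21 in J76 and 11.9 in 293T. PSMC3 and PSMC4 had 10.7 and 10.6 in J76, and 10.2 and 10.7 in 293T, and PSMC5 had 9.53 in J76 and 9.94 in 293T. A weak second peak about as far upstream of the start in both lines was seen at PSMC6, with summits at -708 bp from the start (fold 3.50, J76) and -696 bp (fold 2.63, 293T). PSMA2 had the like, 743 bp (2.70, J76) and 782 bp (3.34, 293T) upstream, beside MRPL32.

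The other 19S subunits, which hold ubiquitin receptors and the scaffold of the lid and base, were marked in both lines at a gene end. PSMD2, a base scaffold, had 11.9 in J76 and 12.6 in 293T. PSMD6 of the lid had 11.9 in J76 and 12.0 in 293T, and PSMD3 9.85 in J76 and 12.0 in 293T. PSMD14, the deubiquitinase of the lid, had 11.1 in J76 and 10.2 in 293T, with a −log10 q of 114 in both. The ubiquitin receptor PSMD4 had 10.1 in J76 and 10.2 in 293T. PSMD1, the other large base scaffold, was lowest, with 6.80 in J76 and 6.31 in 293T. The remaining members, PSMD7, PSMD8, PSMD11, PSMD12 and PSMD13, lay between 8.85 and 11.4 in J76 and between 10.2 and 11.7 in 293T.

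Activators and assembly factors were marked at an annotated start in both lines wherever a start was given. PSME1 and PSME2, which form the interferon-inducible activator cap, had 9.31 and 8.79 in J76, and 10.1 and 8.77 in 293T. The PSME2 summit lay 742 bp upstream of its start in J76 and 746 bp in 293T, at a peak that also lies at the end of RNF31. PSME3, the nuclear activator, had 11.3 in J76 and 9.64 in 293T, and PSME4 had 8.22 in J76 and 6.17 in 293T. The 19S chaperone gene PSMD5 had 12.4 (−log10 q 112, width 1100 bp) in J76. In 293T its peak had a fold of 7.02 (−log10 q 25.5, width 574 bp). It stood in the strongest 1.21% of the J76 list and in the strongest 22.3% of the 293T list. PSMD9, another 19S chaperone, had 11.8 in J76 and 11 in 293T. The core chaperones PSMG1 and PSMG3 had 9.47 and 8.80 in J76, and 8.18 and 8.03 in 293T. PSMG2 had 8.47 in J76 and 9.40 in 293T at its inner start, 44304 bp into the gene, and a weaker peak near its lower end (6.28 in J76, 6.14 in 293T). All 300 bases of the promoter window at that outer start lay in the 293T peak and 0 in the J76 peak.

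Summits at these starts lay mostly just upstream. Relative to the nearest start, with upstream negative, the median summit lay at -55 bp in J76 (39 genes) and -65.5 bp in 293T (38 genes), against -54 and -49 bp over all genes with such a peak. Summits within 100 bp of a start numbered 31 of 39 in J76, 79.5%, against 61.7% over all genes. In 293T they numbered 23 of 38, 60.5%, against 63.7% over all genes. The median fold at a start was 9.91 for the members in J76 and 10.1 in 293T, against 8.55 and 7.88 over all genes with such a peak. PSMB10 on the inner side and PSME2 and PSMG2 on the outer side were displaced in both lines. PSMG1 had summits at -91 bp in J76 and -429 bp in 293T, at a peak that also lies at an end of BRWD1. At the 41 members with boundary peaks in both lines, peaks of the lines overlapped at all 41. Over all genes they overlapped at 11987 of the 12113 such genes, so overlap was not particular to the members. The summits of the highest peaks were a median of 12 bp apart at the 41 members, against 25 bp over the 12113 genes.

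**Figure D5:**
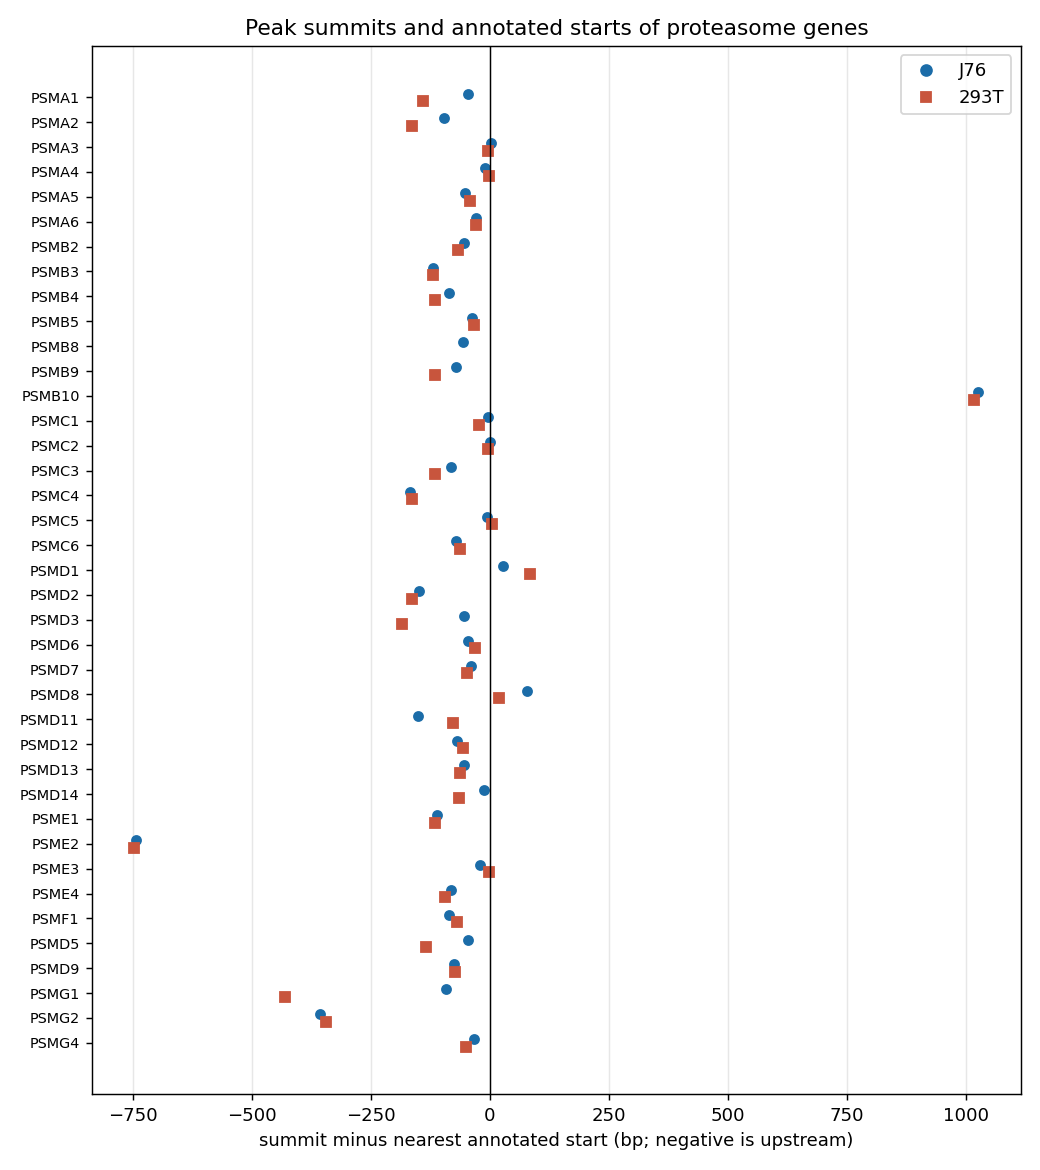
Distance in bp from the nearest annotated start to the peak summit in J76 (circles) and 293T (squares) for the 39 genes with a peak within 1 kb of a start in at least 1 line; negative values are upstream. Most pairs lie within 250 bp of the start, PSMB10 lies 1026 and 1018 bp inside the gene, PSME2 742 and 746 bp upstream, and PSMB8 has a J76 point alone.

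Some single gene ends of members differed between the lines, in J76 alone at about the share of all gene ends. Of the 92 ends of the 46 genes, 42 had a peak in both lines (32.3% of all gene ends), 3 in J76 alone (3.25%), 4 in 293T alone (6.83%) and 43 in neither (57.6%). The J76 ends were the start of PSMB8 and the far ends of PSMC2 (fold 3.07, −log10 q 2.58) and PSMD9. The last was strong (fold 9.93, −log10 q 37.7) and also lies at an end of CFAP251. The 293T ends were the far ends of PSMB5 (4.49), PSMD11 (3.43), PSME2 (7.60, also at EMC9) and PSMB10. At PSMB10 the peak of the gene body reached within 1 kb of that end in 293T. The 293T peak beside PSME2 overlapped a J76 peak that did not reach the 1 kb window.

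Peaks without a counterpart in the other line were also counted inside and around the genes. PSMA1 held 6 such J76 peaks within its annotated ends and 0 from 293T, with folds between 2.68 and 7.12. All 6 lay upstream of the annotated PSMA1 start, between that start and the upper gene end. PSMD1 held 7 from 293T and 0 from J76, with folds between 3.19 and 6.50. Its peaks of fold 3.19 and 4.51 also lie at an end of HTR2B. The annotated genes span 138787 bp (PSMA1) and 115961 bp (PSMD1), and counts of peaks without a counterpart were not scaled to gene length. Within 50 kb of a member there were on average 1.78 J76 and 2.17 293T peaks of this kind, against 1.97 and 3.33 over all genes; a peak near several members was counted for each. The highest such 293T count was 12, at PSMD1, where J76 had 1.

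The promoter windows were searched for 9 short motifs on both strands. The 40 members with a start had 49 windows, and all protein-coding genes had 22131. The antioxidant response element core TGACNNNGC, the letters bound by the NFE2L1 and NFE2L2 factors that raise proteasome genes, was found in 15 of 49 windows (30.6%, against 13.8% of all windows). Among them were those of PSMB3, PSMC4, PSMD12 and PSME1. The ETS core CCGGAA was in 20 of 49 (40.8%, against 21.2%). The site of NRF1, a different gene from NFE2L1, is spelled GCGCA, any base, GCGC. It was in 7 windows (14.3%, against 7.40%), those of PSMA4, PSMA6, PSMB4, PSMC5 and PSMD6. CCAAT was in 19 (38.8%, against 34.6%), GGGCGG in 34 (69.4%, against 56.3%), CACGTG in 3 (6.12%, against 8.34%) and TATAAA in 4 (8.16%, against 9.46%). The median window had 22 CpG sites in members and 21 over all windows, with the same median GC content of 62.3%.

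Interferon-type letters were present at several genes of the immunoproteasome. The interferon response letters GAAA, any 2 bases, GAAA were in 7 of 49 windows (14.3%, against 3.17% of all windows), those of PSMB8, PSMB10, PSME1, PSME2, PSMA4, PSMB4 and PSMG4. In the sequences printed above this motif begins 4 bases before the inner PSMB8 start and 21 bases before the PSMB10 start. Neither of these matches lay in a peak of either line. The motif was not matched in the window of PSMB9 or PSMB11, nor in the outer PSMB8 window, which lay wholly inside the J76 peak. TTCNNNGAA was in 7 windows (14.3%, against 6.79%), including the inner ones of PSMB8 and PSMB5. A match is a run of letters and was not tested for binding; windows of 1 gene can overlap, and TTCNNNGAA can overlap CCGGAA read on the other strand.

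Other genes of the pathway were marked in both lines almost throughout. Of 55 listed genes, 52 were marked at a boundary in each list (60.7% of all genes), 1 in J76 alone (3.94%) and 1 in 293T alone (9.09%). Among 19 further subunits, chaperones and partners, the core maturation factor POMP had 12.4 in J76 and 10.9 in 293T, and SEM1, a small lid subunit, had 8.75 in J76 and 11 in 293T. PSMA8, the alpha subunit of the testis proteasome, was the one in J76 alone. All 10 genes of proteasome gene transcription were marked in both lines. NGLY1, which processes NFE2L1, had 11.5 in J76 and 8.93 in 293T, and NFYC 10.3 and 10.1 in the same order. Of 17 genes of interferon control and peptide presentation, 16 were marked in both lines, led by STAT2 (11 in J76 and 12.4 in 293T). IRF8, a leukocyte transcription factor, had a boundary peak in 293T alone (8.75), while within 1 kb of its annotated starts it had peaks in J76 alone (4.11 and 4.98). TAPBP, marked at a gene end in both lines, also had a peak within 1 kb of its annotated start in J76 alone. Starts were given for 14 of the 17. Of these, 12 had such a peak in both lines (63.5% of all genes), the other 2 in J76 alone (3.35%). Of 9 ubiquitin and unfoldase genes, 8 were marked in both, with UBA6 at 11.9 in J76 and 8.56 in 293T and UFD1 at 8.86 in J76 and 10.4 in 293T.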

How the data were processed

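ATAC-seq libraries of J76 and 293T were used as 1 peak list each, called per library. Per the submitters' processing notes, the tools included Bowtie2 and MACS2. Settings, duplicate removal, any cut-site shift and the genome build: not given in the sources used here. Contig names in both lists belong to GRCh38. The authors deposited for each peak a fold enrichment at the summit (a linear ratio), the p-value and q-value as −log10, and an integer score. The deposited score is about 10 times the −log10 q and was not used. Python 3.11.15 with pandas 2.3.3 and numpy 2.4.6 was used, and the overlap and motif steps were tested on simulated data. Gene ends and promoter windows came from RefSeq, and genes on chromosome Y or unplaced contigs were dropped. Peaks of the lines had a counterpart if they overlapped by at least 1 bp.

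The members and lists were chosen with earlier results of these data known, and counts are given beside those over all genes, with no test. Named were PSMB5 to PSMB11, all members not marked in both lines, the 2 highest and the lowest member of each class per list, pathway genes marked in 1 line, and the highest of each pathway list; other genes were picked with their values in view. One listed pathway gene is not reported here. The alternatives tried were stricter lists (−log10 q from 5 or from 10 up), equal list lengths, windows of 500 bp or 2.5 kb, summits, the transcription start end, genes free of a neighbour's end within 2 kb, and, chosen after seeing the data, any annotated start. Peak lists without counts leave the depth and its precision unknown.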

Additional observations from a re-analysis of the deposited data

How the results depend on the processing

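The 41 members marked in both lines, and PSMB8 in J76 alone, were the same at a −log10 q of at least 5 or 10, with 59631 peaks from each list and with 500 bp windows. Of all 19970 genes, 11878, 11357, 12009 and 11547 were marked in both lines at these settings, in the same order. At the transcription start end, given for 40 members, 35 were marked in both lines, PSMB8 in J76 alone and 4 in neither. Over all genes, 9547 of 15811 were marked in both there. This setting used the gene end on the start side, so the internal starts of PSMA6, PSMF1 and PSMG4 did not count. Over all comparisons and alternatives, 155 of 182 counts stayed within 1.5 times the reported one and 27 did not. Raw counts were compared, so a setting that left fewer genes could lower a count without lowering its share. With 2.5 kb windows, members in J76 alone numbered 0, in 293T alone 2 (PSMF1 and PSMG4) and in neither 2 (PSMA6 and PSMB11); the immunoproteasome and thymus genes then had 0 in J76 alone, the constitutive genes 2 in 293T alone and 1 in neither, and the pathway genes 0 in J76 alone. With the summit in the window, 1 member (PSMG2, constitutive) was in 293T alone. The immunoproteasome and thymus genes then had 1 in both lines and 2 in neither, and the pathway genes 2 in J76 alone. Of all 19970 genes, 13167 were in both lines with 2.5 kb windows and 11588 with summits. In the same order, 935 and 860 were in J76 alone, 1860 and 1829 in 293T alone and 4008 and 5693 in neither. Among genes free of a neighbour's end within 2 kb, which leaves 23 members, 21 were in both lines, 0 in J76 alone and 2 in neither; PSMB8 is not among them. Of these, 20 of 21 constitutive genes were in both lines and 1 in neither, and of 2 immunoproteasome and thymus genes 1 was in both and 0 in J76 alone; 29 of 32 pathway genes and 6565 of 12706 of all genes were in both. With any annotated start, 1 member (0 constitutive) was in neither, and the pathway genes had 3 in J76 alone and 0 in 293T alone. Pathway genes in J76 alone were 2 at a −log10 q of at least 10 and 2 at the transcription start end. Of the 41 members with overlapping peaks, 40 had peaks overlapping by 50% of both and 39 had summits within 250 bp. Over the 12113 genes marked in both lines these numbers were 11013 and 10965 (90.5%). Other causes of these shifts were not tested. No paired analysis was possible because each line had 1 library. The lists give no depth, so the limit for a missing peak is unknown.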
